A study of Capra hircus with 2 samples.

Results

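miR-99a, miR-99b, miR-100, miR-125a and miR-125b are 5 microRNAs (miRNAs) of 2 seed families, and they were followed in the mammary gland of dairy goats (Capra hircus) between peak lactation and late lactation. Their reads were found as 712 of the 659118 distinct small RNA sequences (tags) of the series, 525 of 466727 in the peak library and 331 of 259250 in the late library. Together they held 88820 reads (0.466% of all clean reads) in the peak library and 17610 reads (0.238%) in late lactation. Per the study's methods, gland tissue was taken by surgery from 5 Laoshan dairy goats aged 4 years in the third lactation, and the RNA of each stage was pooled into 1 library (the peak library and the late library). There was thus no replicate library, and no test between the stages was possible on these reads. The study also measured miR-100 by quantitative RT-PCR in individual goats and reports it as lower in late lactation. Those measurements are not part of the reads used here. The libraries held 19044002 and 7385833 clean reads, so that 1 read stood for 0.0525 and 0.135 reads per 1000000 clean reads (RPM). All 95% intervals given here are exact and hold the counting error alone, because PCR copies are not separate molecules and pooling removed the spread between goats.

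A miRNA is cut from a hairpin precursor, and nt 2 to 8 of the mature strand, the seed, pair with target mRNAs. miR-99a, miR-99b and miR-100 share a seed, and mTOR is among their known targets. miR-125a and miR-125b are the vertebrate relatives of lin-4, the founding miRNA of the worm, and are known as regulators of LIN28 and of growth factor signalling. In mammals these genes lie in 3 clusters that each hold a miR-99 or miR-100 gene, a let-7 gene and a miR-125 gene, namely miR-99a/let-7c/miR-125b-2, miR-100/let-7a-2/miR-125b-1 and miR-99b/let-7e/miR-125a. Members of a cluster can be cut from 1 primary transcript, so the data were also read for whether the partners of miR-100 moved with it.

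The most abundant tag of each member is shown first, because all sums were built on it. It is given in DNA letters from 5′ to 3′ as in the deposited files, with the seed in capitals.

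miR-100: aACCCGTAgatccgaacttgt

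miR-99a: aACCCGTAgatccgatcttgt

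miR-99b: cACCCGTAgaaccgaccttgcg

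miR-125a: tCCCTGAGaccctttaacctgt

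miR-125b: tCCCTGAGaccctaacttgtga

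Counted from 1 at the 5′ end, miR-99a and miR-100 differ within nt 1 to 17 by T16A alone, where the base of miR-99a is named first. miR-99a and miR-99b differ there by A1C, T11A and T16C, and miR-125a and miR-125b by T14A, T15A, A16C and A17T. For miR-99a, miR-99b, miR-125a and miR-125b, the reads of every tag holding nt 2 to 17 of these sequences were summed. miR-100 was summed over tags with the last 16 nt of the primer that the study used for it, which are the last 16 nt of the 22 nt tag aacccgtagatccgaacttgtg. Since that window ends at nt 22, it leaves out shorter tags, and miR-100 is also given over nt 2 to 17. A single tag, with 1 read in peak lactation, contained the window of 2 members.

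miR-100, miR-99b and miR-125a were lower in late lactation by more than 2-fold, whereas miR-99a and miR-125b stood within 1.1-fold of their level in peak lactation. miR-100 had 11945 reads (627 RPM) in the peak library and 884 reads (120 RPM) in the late library over the window of the primer, with a log2 ratio of -2.39 (95% interval -2.49 to -2.29). Over nt 2 to 17 it had 27173 reads (1427 RPM) and 1563 reads (212 RPM), which made it 6.74-fold lower, with a log2 ratio of -2.75 (-2.83 to -2.68). On this second sum miR-100 was the most abundant of the 5 members in the peak library and the least abundant in the late library. In such a library of whole tissue, fewer cells of a type and less RNA per cell cannot be told apart.

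miR-99a, which differs from miR-100 at a single base of the window, had 12934 reads (679 RPM) in the peak library and 4643 reads (629 RPM) in the late library. Its log2 ratio was -0.11 (-0.16 to -0.06). miR-99b had 19562 reads (1027 RPM) and 2144 reads (290 RPM), with a log2 ratio of -1.82 (-1.89 to -1.76). The 3 miRNAs with the seed ACCCGTA therefore moved by different factors between the libraries. Relative to miR-99a, miR-100 was lower by a further -2.64 on the log2 scale (-2.73 to -2.55) when both were summed over nt 2 to 17, and relative to miR-99b by -0.93 (-1.03 to -0.83).

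miR-125a had 11335 reads (595 RPM) in the peak library and 1926 reads (261 RPM) in the late library, with a log2 ratio of -1.19 (-1.26 to -1.12). miR-125b had 17771 reads (933 RPM) and 7330 reads (992 RPM), with a log2 ratio of 0.09 (0.05 to 0.13). The pair with the seed CCCTGAG thus also came apart, and miR-125b was the most abundant member in late lactation. The difference in log2 ratio between miR-100 and miR-125a was -1.56 (-1.67 to -1.46) over nt 2 to 17, and that between miR-100 and miR-125b was -2.84 (-2.93 to -2.76). These differences do not depend on the totals used for scaling, and their intervals, as all others here, carry no error between animals.

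**Figure D1:**
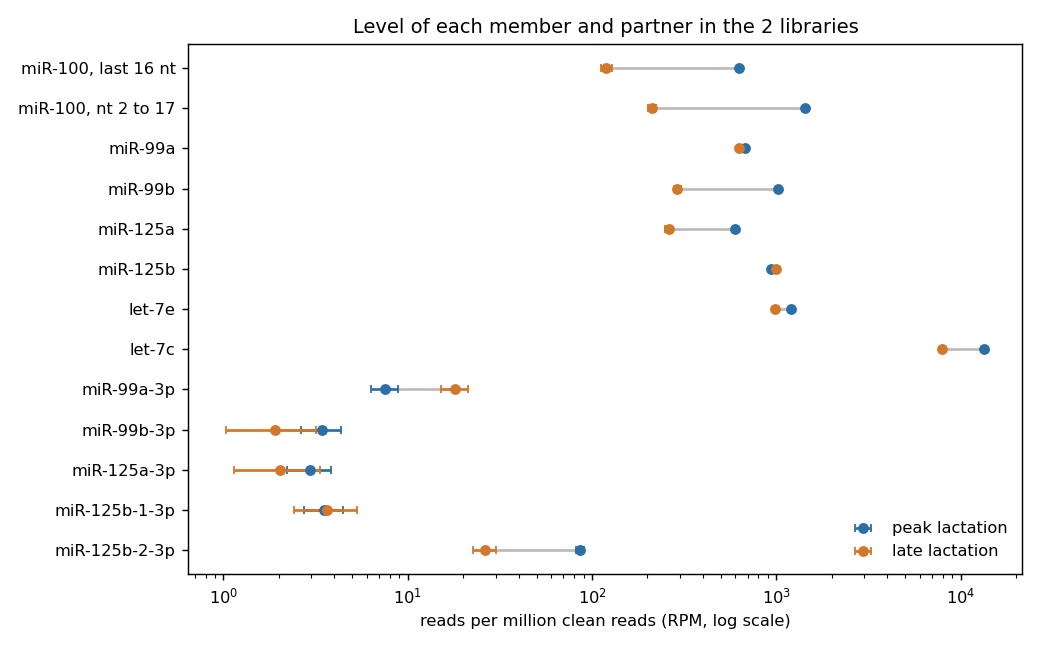
Level of the members, of let-7c and let-7e and of opposite arms in peak lactation (blue) and late lactation (orange), in RPM on a log axis, with bars for the 95% Poisson interval of the read count in 1 library per stage. miR-100, miR-99b, miR-125a and miR-125b-2-3p lie well to the left in late lactation, while the points of miR-99a (679 and 629 RPM) and miR-125b (933 and 992 RPM) nearly coincide.

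The composition of each seed family changed with these ratios. Of the reads of the miR-99 and miR-100 members, miR-100 held 45.5% (45.1% to 45.9%) in the peak library and 18.7% (17.9% to 19.6%) in late lactation, while the share of miR-99a was 21.7% and 55.6%. miR-99b held 32.8% and 25.7%. Of the reads of miR-125a and miR-125b, the share of miR-125b was 61.1% (60.5% to 61.6%) and 79.2% (78.4% to 80.0%). All tags with the seed ACCCGTA at nt 2 to 8 summed to 3120 RPM in the peak library and 1117 RPM in the late library, with a log2 ratio of -1.48 (-1.52 to -1.45). Those with the seed CCCTGAG summed to 1568 and 1241 RPM, with a log2 ratio of -0.34 (-0.37 to -0.30).

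Reads with a family seed that belonged to no member were few. They numbered 705 in the peak library and 118 in the late library for ACCCGTA, and 816 and 122 for CCCTGAG. The 5 most abundant such tags of each seed all differed from a member by a single base in nt 1 to 17. For the first seed these tags had between 13 and 40 reads in the peak library and at most 7 in the late library, and the most abundant carried C13A relative to miR-99b. For the second, a tag with C11T relative to miR-125b had 192 reads in the peak library and 20 in the late library. A tag with A14C relative to miR-125b had 130 reads in the peak library and none in the late library, and one with C11T relative to miR-125a had 113 and 4. Whether these are reading errors or RNA was not tested.

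Among all 2234 groups of tags that share nt 2 to 17 and had a mean of at least 10 RPM over the libraries, 36.7% were at least 2-fold lower in late lactation and 22.0% at least 2-fold higher. Against this background, 3 of the 5 members (miR-99b, miR-100 and miR-125a) were at least 2-fold lower and none was at least 2-fold higher. The median log2 ratio was -0.54 over all groups and -1.19 over the members. miR-100 stood below most groups, with 7.48% of them lower on the window of the primer and 5.55% lower on nt 2 to 17. For miR-99b that share was 15.4% and for miR-125a 31.3%, so that the value of miR-125a was not unusual in these libraries. miR-99a and miR-125b had 60.0% and 63.6% of groups below them. All 5 members also had a mean of at least 100 RPM. Among the 426 groups at that level, the median log2 ratio was -0.25. There 4.46% of groups were lower than miR-100 (3.29% on nt 2 to 17), 10.8% lower than miR-99b and 24.2% lower than miR-125a. For miR-99a and miR-125b these shares were 52.1% and 56.8%.

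**Figure D2:**
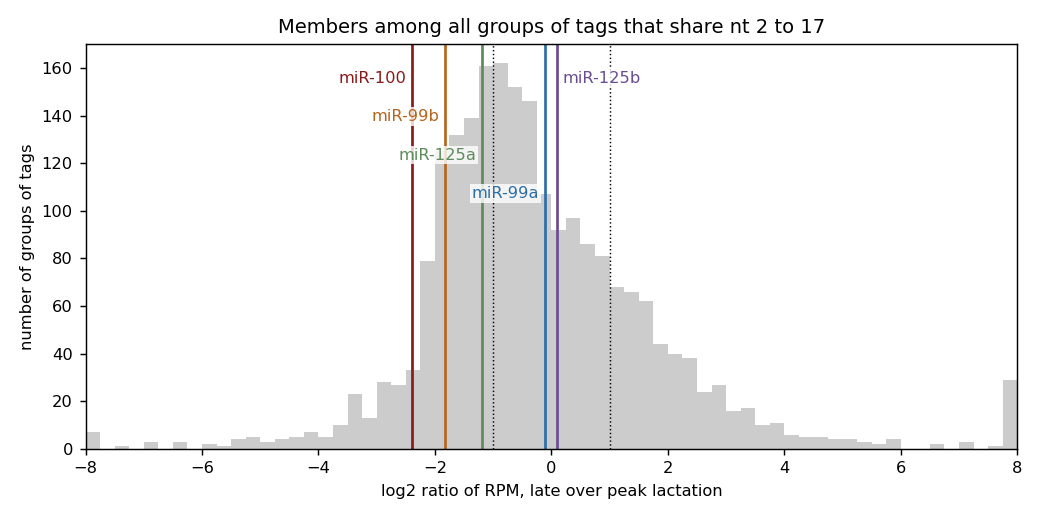
Histogram of the log2 ratio of RPM (late over peak lactation) of the 2234 groups of tags, with groups beyond 8 in size put in the outermost bins, dotted lines at 2-fold, and a coloured line for each member. miR-100 (-2.39) and miR-99b (-1.82) lie in the lower part of the distribution, miR-125a (-1.19) near its mode, and miR-99a (-0.11) and miR-125b (0.09) close to 0.

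The partners read for the miR-100 cluster did not share its ratio, and 1 of them, let-7a, was lower by a smaller factor. miR-125b, which is made from 2 genes, had the log2 ratio of 0.09 given above, against -2.75 for miR-100 over the same kind of window. let-7a, whose mature strand comes from several genes, let-7a-2 among them, was 1.58-fold lower, with a log2 ratio of -0.66 (-0.66 to -0.65). Neither mature strand can be assigned to the miR-100 locus alone. The opposite arms of the hairpins (3p) differ between the 2 miR-125b genes and were therefore read apart. Their most abundant tags are shown with the seed in capitals.

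miR-125b-1-3p: aCGGGTTAggctcttgggagc

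miR-125b-2-3p: aCAAGTCAggctcttgggacc

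miR-125b-1-3p is the arm of the miR-100 cluster as described in mammals. The goat assembly ARS1.2 of RefSeq listed no other miRNA gene within 100 kb of MIR100, so this cluster was not seen in the goat annotation. miR-125b-1-3p had 67 reads (3.52 RPM) in the peak library and 27 reads (3.66 RPM) in late lactation, with a log2 ratio of 0.06 (-0.65 to 0.72). This interval does not reach the ratio of miR-100, but it sets a 3p arm against a mature strand. These need not share a ratio within a hairpin, as miR-99a (-0.11) and miR-99a-3p (1.26) differed in sign. For miR-99b (-1.82 and -0.85 for its 3p arm) and miR-125a (-1.19 and -0.53) the sign was shared. Whether a 3p arm follows the output of its locus was not tested, so the interval does not show how the miR-100 locus changed. miR-125b-2-3p, the arm of the miR-99a cluster, had 1647 reads (86.5 RPM) and 194 reads (26.3 RPM), with a log2 ratio of -1.72 (-1.94 to -1.50). It made up 96.1% (95.06% to 96.96%) of the 3p reads of both genes in the peak library and 87.8% (82.7% to 91.8%) in late lactation. The ratio of miR-125b-2-3p was lower than that of miR-125b-1-3p by -1.77 on the log2 scale (-2.48 to -1.04). The arm of miR-100 itself, miR-100-3p, had 3 reads in the peak library and none in the late library, so no ratio was taken. The exact 95% interval of 0 reads in the late library reaches up to 0.4995 RPM.

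In the miR-99a cluster, the products did not share a direction. miR-99a was at -0.11 on the log2 scale, let-7c at -0.76 (-0.78 to -0.75) with 13436 and 7923 RPM, and miR-125b-2-3p at -1.72, while miR-99a-3p was higher in late lactation. miR-99a-3p had 143 reads (7.51 RPM) in the peak library and 133 reads (18.01 RPM) in late lactation, with a log2 ratio of 1.26 (0.91 to 1.61). Its share of the reads of both arms was 1.09% (0.92% to 1.29%) in the peak library and 2.78% (2.34% to 3.29%) in late lactation. In the goat assembly ARS1.2 of RefSeq, MIR99A, MIRLET7C and MIR125B are listed as neighbours within 100 kb, so a miR-125b gene of this cluster is also annotated in the goat.

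In the miR-99b cluster, both flanking members were lower in late lactation, and the let-7 gene between them was less so. miR-99b was at -1.82 and miR-125a at -1.19, a difference of -0.63 (-0.73 to -0.54). let-7e had 22843 reads (1199 RPM) and 7249 reads (982 RPM), with a log2 ratio of -0.29 (-0.33 to -0.25). It differed from miR-99b by more than 2-fold, since the ratio of miR-99b was lower by -1.53 (-1.61 to -1.46). The opposite arms were near the limit of the depth. miR-99b-3p had 65 and 14 reads, with a log2 ratio of -0.85 (-1.80 to 0.00). This ratio passed 2-fold with its most abundant tag alone (-1.59), which had only 31 and 4 reads. It also did so with at least 2 reads per tag (-1.32), a filter that weighs more on the library with fewer reads. miR-125a-3p had 56 and 15 reads, with a log2 ratio of -0.53 (-1.46 to 0.31), so that a difference between the libraries was not detectable for miR-125a-3p at this depth. MIR99B and MIRLET7E are neighbours in the same table. MIR125A was not matched there, and MIR100 had no other listed miRNA gene within 100 kb.

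The members were not single sequences, and tags of 1 member that differed only at their 3′ end changed by different factors. The tags of miR-99a show this best, and nt 18 onwards are in capitals.

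miR-99a, 21 nt: aacccgtagatccgatcTTGT

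miR-99a, 22 nt: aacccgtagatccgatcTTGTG

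miR-99a, 23 nt: aacccgtagatccgatcTTGTGA

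The tag of 21 nt had 6956 reads in the peak library and 1284 in the late library, with a log2 ratio of -1.07 (-1.16 to -0.99). The tag of 22 nt had 635 and 1292 reads, with a log2 ratio of 2.39 (2.25 to 2.53), and that of 23 nt had 3070 and 1119 reads, with a log2 ratio of -0.09 (-0.19 to 0.01). The nearly level sum of miR-99a therefore held a 21 nt form that was about 2-fold lower and a 22 nt form that was over 5-fold higher. Without its hairpin sequence, which was not used here, bases added after cutting cannot be told from bases of the gene.

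miR-100 was lower in each of its 5 leading tags, but again least so at 22 nt. Its tag of 21 nt had 14181 and 591 reads (log2 ratio -3.22, -3.34 to -3.10) and its tag of 23 nt, which ends in A, had 8821 and 504 reads (-2.76, -2.90 to -2.63). The tag of 22 nt, the sequence of the primer, had 1713 and 263 reads (-1.34, -1.53 to -1.15). The smaller ratio on the window of the primer than on nt 2 to 17 followed from this, since the window left out 15274 reads of miR-100 in the peak library and 683 in the late library, most of them the tag of 21 nt. Of the reads in that window, 46 in the peak library and 4 in the late library lacked nt 2 to 17 of miR-100.

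miR-99b was 21 nt long in 49.8% of its reads at peak and 29.2% late, and 22 nt long in 44.1% and 56.1%. Its tag of 21 nt had 9576 and 608 reads (log2 ratio -2.61, -2.73 to -2.49), and its tag of 22 nt had 8504 and 1184 reads (-1.48, -1.57 to -1.39). miR-125a was 22 nt long in 66.2% of its reads in the peak library and 43.3% in late lactation, and 23 nt long in 11.3% and 30.7%. Its tag of 22 nt had 6746 and 756 reads (-1.79, -1.90 to -1.68), whereas its tag of 23 nt had 1224 and 540 reads (0.19, 0.04 to 0.33) and its tag of 24 nt had 477 and 200 reads (0.11, -0.13 to 0.35). The lower level of miR-125a was thus carried by tags of 21 and 22 nt.

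miR-125b was the most uniform member, with 80.3% of its reads in the peak library and 69.9% in late lactation in the 22 nt tag shown above. That tag had 14263 and 5124 reads, with a log2 ratio of -0.11 (-0.16 to -0.06), opposite in sign to the sum. A tag of 23 nt with 1 further A at its end, tccctgagaccctaactTGTGAA, had 134 reads in the peak library and 597 in the late library, with a log2 ratio of 3.52 (3.25 to 3.80). It was the largest ratio among the leading tags of the 5 members, and its share of miR-125b was 0.754% in the peak library and 8.15% in late lactation.

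**Figure D3:**
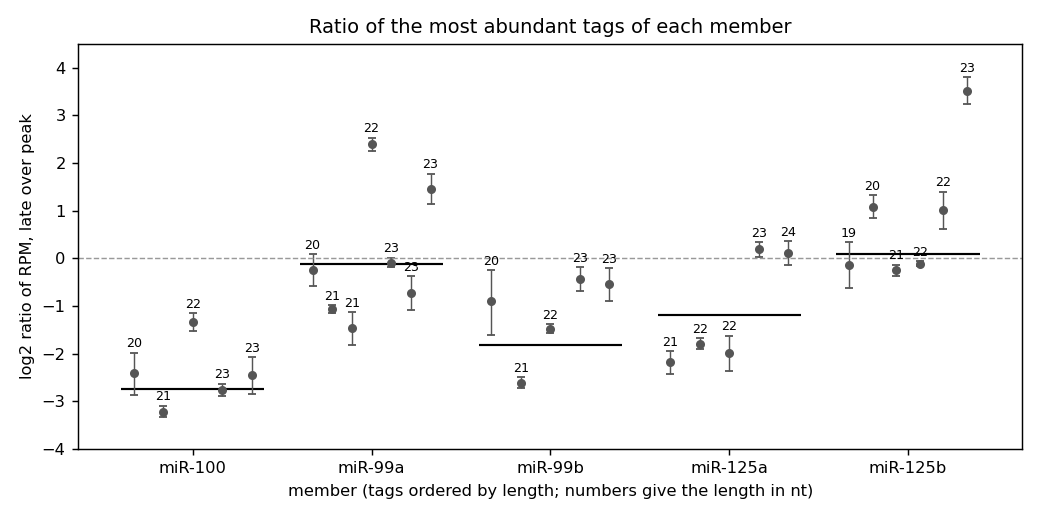
Log2 ratio of RPM (late over peak lactation) of the most abundant tags of each member, ordered by length, with the length in nt above each point and 95% counting intervals as bars; a black line gives the sum over nt 2 to 17. Tags of 21 nt lie below the line of the sum in all 5 members and tags of 22 or 23 nt reach the highest values, up to 3.52 in miR-125b; the second 21 nt tag of miR-99a and one of its 23 nt tags begin with G.

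The tags of all 5 members were longer in late lactation. Over tags of up to 30 nt, the mean length of miR-99a was 21.6 nt in the peak library and 22.0 nt in late lactation, a difference of 0.393 nt. The difference was 0.260 nt for miR-99b, 0.144 nt for miR-100, 0.479 nt for miR-125a and 0.129 nt for miR-125b. In all reads of the libraries the mean length moved the other way, from 22.2 to 21.6 nt. Of 424 groups of tags with a mean of at least 100 RPM, 127 were longer in late lactation, with a median difference of -0.184 nt. The let-7 partners were shorter in late lactation, by -0.118 nt for let-7c, -0.349 nt for let-7e and -0.176 nt for let-7a. Between 84.0% (miR-125b) and 93.4% (miR-125a) of those groups had a smaller difference than the members.

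**Figure D4:**
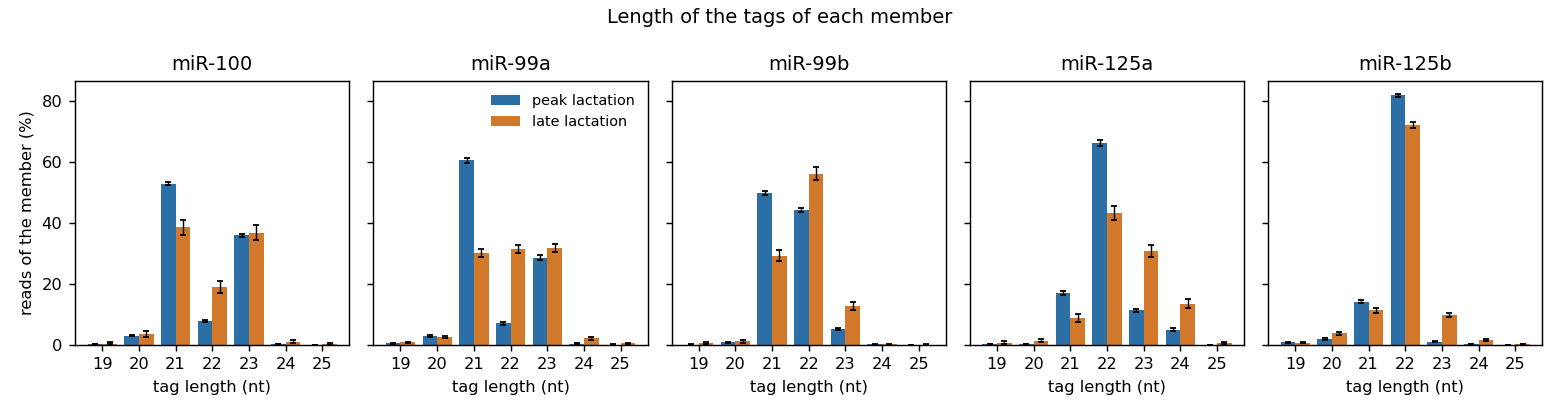
Share of the reads of each member (%) at each tag length from 19 to 25 nt in peak lactation (blue) and late lactation (orange), with exact 95% binomial intervals as bars. The share at 21 nt is lower in late lactation in all 5 members, and that at 22 nt (miR-100, miR-99a, miR-99b) or at 23 nt (miR-125a, miR-125b) is higher.

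**Figure D5:**
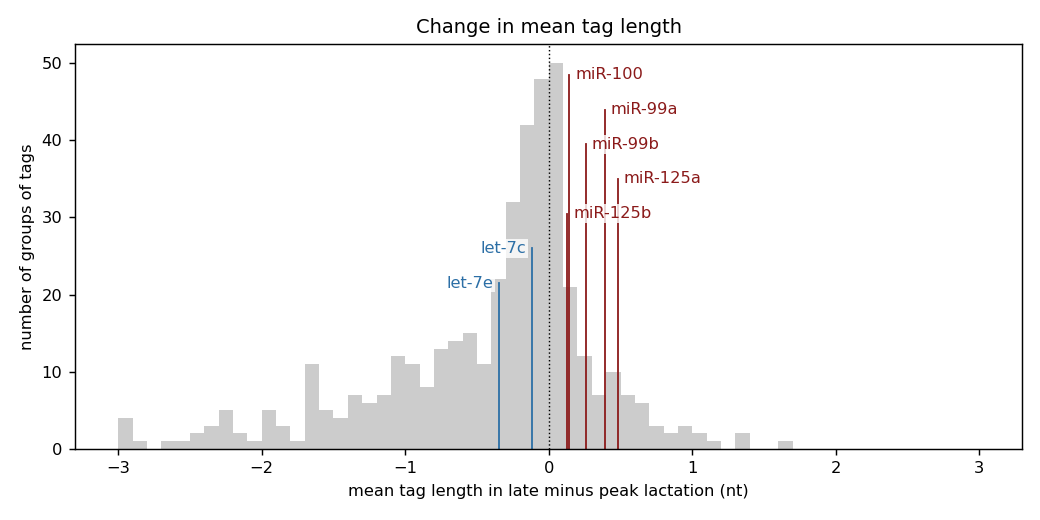
Histogram of the difference in mean tag length (late minus peak lactation, nt) over the groups of tags with a mean of at least 100 RPM, with differences beyond 3 nt put in the outermost bins, and lines for the members (red) and for let-7c and let-7e (blue). All 5 members lie to the right of 0, from 0.129 to 0.479 nt, and both let-7 partners to the left.

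miR-99a carried a second first base. Among its tags with nt 2 to 17 in place, 1093 of 12713 reads (8.60%, 8.12% to 9.10%) began with G in place of A in peak lactation (A1G), and 256 of 4485 reads (5.71%, 5.05% to 6.43%) did so in late lactation. The most abundant such tag is shown with this base in capitals.

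miR-99a, A1G: Gacccgtagatccgatcttgt

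It had 572 reads in the peak library and 80 in the late library. The form with G was lower in late lactation relative to the form with A by -0.64 on the log2 scale (-0.84 to -0.43). miR-100, which also begins with A and has the same bases up to nt 15, began with G in 6 of 26584 reads (0.0226%) in the peak library and in 0 of 1514 reads in the late library, which allows up to 3 reads. Of 106 groups of tags with a mean of at least 100 RPM that begin with A, the median share of G was 0.0353% in the peak library and 0.0198% in late lactation, and a single group, that of miR-99a, exceeded 1% in either library. In the other 4 members, the main first base held between 99.8% and 100% of such reads in each library.

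miR-10a and miR-10b, a neighbouring family with a miR-100-like body behind another seed, were checked because miR-10a differs from the window of the primer by a single base. miR-10a had 29979 reads (1574 RPM) in the peak library and 2614 reads (354 RPM) in the late library, with a log2 ratio of -2.15 (-2.21 to -2.10), and miR-10b had 5214 and 2826 RPM, with a log2 ratio of -0.88 (-0.91 to -0.86). Some reads held the window of miR-100 but lacked its nt 2 to 17. Of these, 15 in the peak library and 2 in the late library held CCTGTAG, which runs from the miR-10 seed into the bases behind it. The sums of miR-100 were therefore hardly touched by miR-10a.

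The libraries also differed in ways that are not the stage. Reads removed as 5′ adaptor contaminants amounted to 0.0494% of high-quality reads in the peak library and 14.0% in late lactation, and clean reads were 98.5% and 73.9% of those reads. As each stage was 1 library, this difference and the stage cannot be told apart in any ratio given here.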

How the data were processed

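Small RNA of 1 pooled library per stage was sequenced on an Illumina 1G Genome Analyzer. The authors filtered reads by quality, cut off the 3′ adaptor, dropped adaptor contaminants, poly(A) reads and short inserts, and deposited raw counts per distinct tag. No version of the filtering tools was given in the sources used here. The authors also deposited the reads kept at each filter.

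No table of named mature sequences was used. A tag was named by its seed at nt 2 to 8 and a second motif of 6 nt, known from the conserved miRNAs. For nt 12 to 17 these were CCGATC for miR-99a, CCGACC for miR-99b, CCGAAC for miR-100, CTTTAA for miR-125a and CTAACT for miR-125b. The most abundant tag of 20 to 24 nt with both motifs gave the window of 16 nt, and all tags that contain it were summed, on the sequenced strand. let-7a and let-7c were summed over nt 5 to 20, which separates them. miR-100 was the exception, summed over the last 16 nt of its 22 nt tag (the window of the primer) and also over nt 2 to 17. All others were summed over nt 2 to 17. The named tags are the members, the arms and let-7 genes of their clusters, miR-10a, miR-10b, and the 5 most abundant other tags of each seed. Members and lists were chosen with earlier results of these data known.

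Ratios are late over peak lactation on RPM, with exact conditional binomial (Clopper-Pearson) intervals, and differences of ratios have Fisher's exact conditional intervals. Called means past 2-fold. No replicate test was possible. The 2-fold call and the ratio interval were tested on simulated counts with planted changes and counting error alone. Those counts held no spread between animals or libraries, so that step says nothing about such spread. Alternatives were other totals, TMM factors from edgeR 4.0.16, median-ratio factors from DESeq2 1.42.0 (no test of either was run), other windows, tag lengths and filters. Sums and intervals were made in Python 3.11.15 with pandas 2.3.3, numpy 2.4.6 and scipy 1.17.1, figures with matplotlib 3.10.9, and factors in R 4.3.3.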

Additional observations from a re-analysis of the deposited data

How the results depend on the processing

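miR-100, miR-99b and miR-125a stayed at least 2-fold lower in late lactation under every alternative run, with log2 ratios from -3.22 to -1.20, from -1.83 to -1.34 and from -1.80 to -1.04. For each of them, the alternative of 1 length alone took 22 nt. Other lengths could fall short of 2-fold. At 23 nt, the leading tags of miR-99b were at -0.43 and -0.54 and that of miR-125a at 0.19, while those of miR-100 were at -2.76 and -2.45. The value of -1.20 for miR-100 allowed 1 mismatch, which takes in miR-99a and miR-10a. miR-99a passed 2-fold with its most abundant tag alone (-1.07), with tags of 21 nt alone (-1.12, an alternative chosen after seeing the data) and with 1 mismatch (-1.32), which takes in miR-100. miR-125b turned to -0.11 with its most abundant tag alone and to -0.091 with tags of 22 nt alone (also chosen after seeing the data). miR-125b-1-3p, with few reads, turned to -0.008 with 1 mismatch and to -0.56 at 21 nt alone. miR-99b-3p passed 2-fold with its most abundant tag alone (-1.59), with at least 2 reads per tag (-1.32) and with 1 length alone (-1.003, chosen after seeing the data). All 12 alternative differences between miR-100 and the other members, and all 5 alternative differences in mean length, kept their direction. TMM factors, median-ratio factors, totals of 18 to 30 nt and totals without the 10 most abundant tags added 0.05, 0.03, -0.003 and 0.085 to every log2 ratio and changed no call of a member.

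With a mean of at least 1 RPM, 30.9% of 8962 groups of tags were at least 2-fold lower and 29.6% higher (2765 and 2657). With at least 100 RPM, the shares were 29.3% and 26.1% of 426 groups (125 and 111). As single tags they were 33.2% and 26.4% of 3806 (1263 and 1004), against 36.7% and 22.0% of 2234 groups as reported (820 and 491). The excess of lower over higher groups was thus smaller under each of these alternatives. No paired analysis was possible because each stage is 1 library. The ends that match a precursor were not counted apart, since no hairpin sequence was used. Arms with under 100 reads are limited by depth.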
